A study of Rattus norvegicus with 9 samples.

Results

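The 38 genes described here are those of the 6025 rows of a table of imiquimod against untreated rat back skin, and of the 399 rows of a second table of lidocaine effects, that belong by symbol to the TNF superfamily, its adaptors or NF-kB signalling. They were matched by symbol alone, as every row whose symbol begins with Tnfsf, Tnfrsf, Tnip, Nfkb, Birc or Traf with a digit, or is Rel, Rela, Relb, Tnfaip2, Tnfaip3 or Tnfaip8. This rule was set with earlier results of these data known. Together the tables hold 6197 gene IDs. All 38 are in the first table, and 1 of them, Tnfrsf19, is also in the second.

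The 9 samples are back skin of wild-type Sprague Dawley rats weighing 250 g and kept under specific-pathogen-free conditions, with 3 samples in each of 3 groups. The untreated group received nothing. In the imiquimod group the back skin was exposed for 6 days to this Toll-like receptor 7 agonist, which induces psoriasis-like inflammation. The third group had the same imiquimod and, for 4 days from day 3, epidural injections of 1% lidocaine, a local anaesthetic. All samples were collected on day 7, and total RNA of whole tissue was sequenced. Neither a vehicle cream nor a sham injection is among the labelled groups, so handling and drug cannot be told apart. Nothing in the labels ties the samples to separate animals, and p-values reflect only how far the samples differ, which may be technical.

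The tables hold only rows that the authors selected, with a difference between group means of at least 1 on the log2 scale (smallest, 1.001). Presence in a table therefore already depended on the contrast that is tested below, and counts of members are given as a description. In the RefSeq gene table of rat assembly GRCr8, 62 protein-coding symbols meet the symbol rule; the 24 that are not among the tables' rows, such as Rela, Nfkbia, Tnfrsf1a, Traf2, Traf6 and Tnip1, were not analysed here, which does not mean that they were unchanged. In the first table, libraries held 15947423 to 22929894 reads on listed genes. Values are normalized counts, which compare a gene between libraries but not genes with each other, or, for differences, group means subtracted on the log2(normalized count + 1) scale, with a standard error (SE).

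TNF superfamily ligands are mostly membrane proteins that bind receptors of the TNF receptor superfamily on neighbouring cells. Receptors without a death domain recruit TRAF adaptors and the ubiquitin ligases cIAP1 and cIAP2, encoded by Birc2 and Birc3, and release NF-kB from its inhibitors, the IkB proteins. NF-kB dimers of Rel, RelA, RelB and the processed products of Nfkb1 and Nfkb2 then enter the nucleus and bind kappa B sites, also at genes for their own inhibitors, among them A20 (Tnfaip3). In skin, A20 and the nuclear IkB protein encoded by Nfkbiz are known for their links to psoriasis.

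Promoters are shown because several of these genes, such as Nfkb2 and Tnfaip3, are known targets of NF-kB in human and mouse cells. RefSeq promoters of assembly GRCr8, each from 250 bases before to 50 bases after the gene's start, were matched by symbol for 30 of the 38 genes (33 promoters). Birc3, Relb, Tnfrsf10b, Tnfrsf11a, Tnfrsf14, Tnfsf12, Tnfsf4 and Tnfsf9 had none in the table. The kappa B consensus was searched on both strands, and 8 of the 33 promoters held it, against 4.18% of all 33469 promoters in the table and 4.49% of the 21851 of protein-coding genes. It was in 7.32% of promoters of rows called higher with imiquimod and 5.41% of those called lower (limma adjusted p under 0.05). Since fewer than 80% of the members had a promoter, a comparison of these shares is void, and they are given side by side only. By role, 5 of 6 NF-kB factor and inhibitor genes held the consensus (Nfkb1, Nfkb2, Nfkbie, Nfkbiz and Rel), as did 1 of 7 ligand genes (Tnfsf14), 1 of 3 TRAF genes (Traf3), 1 of 4 Tnip and Tnfaip genes (Tnfaip3), 0 of 7 receptor genes and 0 of 3 Birc genes. A looser pattern, GGG and CC with any 5 bases between, was in 21 of the 33 promoters and in 47.3% of all promoters. It was in 52.8% of promoters of protein-coding genes, and in 61.9% and 63.8% of those of rows called higher and lower. By symbol it was in 18 of 30 members (60%), in 64.9% of genes called higher and in 66.8% of those called lower. Overlapping windows of Nfkbid are counted separately among the 33. The 5 promoters below are all from the 8 that held the consensus, and no promoter without it is shown. Levels of their genes are given further on, and capitals mark the consensus matches on either strand.
Nfkb2, chr1:255108124-255108423, plus strand: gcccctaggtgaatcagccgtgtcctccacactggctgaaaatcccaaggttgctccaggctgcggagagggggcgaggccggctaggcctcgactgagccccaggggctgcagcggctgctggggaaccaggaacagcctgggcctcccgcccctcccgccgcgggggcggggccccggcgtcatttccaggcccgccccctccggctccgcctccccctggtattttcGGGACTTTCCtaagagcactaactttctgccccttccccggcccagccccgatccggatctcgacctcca
Nfkbie, chr9:22947823-22948122, minus strand: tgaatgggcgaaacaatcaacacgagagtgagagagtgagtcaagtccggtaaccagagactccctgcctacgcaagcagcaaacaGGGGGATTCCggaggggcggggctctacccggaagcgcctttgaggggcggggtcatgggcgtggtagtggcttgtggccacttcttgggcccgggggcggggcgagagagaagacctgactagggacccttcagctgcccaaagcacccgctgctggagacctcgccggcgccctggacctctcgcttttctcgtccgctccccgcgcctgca
Nfkbiz, chr11:58251471-58251770, plus strand: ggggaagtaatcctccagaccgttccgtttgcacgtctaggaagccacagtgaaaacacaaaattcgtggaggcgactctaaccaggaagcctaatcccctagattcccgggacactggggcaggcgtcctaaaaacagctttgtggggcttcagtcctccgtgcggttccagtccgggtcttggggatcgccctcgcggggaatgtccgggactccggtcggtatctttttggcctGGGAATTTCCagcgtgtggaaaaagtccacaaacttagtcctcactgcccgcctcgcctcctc
Rel, chr14:101921889-101922188, minus strand: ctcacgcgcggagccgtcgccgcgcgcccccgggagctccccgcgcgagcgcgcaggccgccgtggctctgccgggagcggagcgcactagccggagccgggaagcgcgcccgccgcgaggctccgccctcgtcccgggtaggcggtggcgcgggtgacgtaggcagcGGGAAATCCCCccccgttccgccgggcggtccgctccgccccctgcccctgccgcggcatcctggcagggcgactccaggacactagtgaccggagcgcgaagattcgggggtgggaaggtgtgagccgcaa
Tnfaip3, chr1:15543930-15544229, minus strand: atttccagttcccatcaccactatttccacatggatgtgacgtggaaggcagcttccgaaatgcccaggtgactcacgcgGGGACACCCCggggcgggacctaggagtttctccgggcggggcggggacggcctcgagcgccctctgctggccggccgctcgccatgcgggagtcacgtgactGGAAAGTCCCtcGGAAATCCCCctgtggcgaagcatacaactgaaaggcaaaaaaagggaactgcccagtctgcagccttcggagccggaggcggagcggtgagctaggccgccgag
Relative to the start site, the first base of the match lay at -20 in Nfkb2, -164 in Nfkbie and -13 in Nfkbiz. In Tnfaip3 there were 3 matches, at -170, -67 and -55, of which those at -67 and -55 were on the strand opposite to the gene. In Rel the capitals cover 3 overlapping matches that start at -82 and -81, since the letters read as the consensus on both strands. The matches were identical in Nfkb1 and Nfkbiz, GGGAATTTCC, and in Nfkb2 and the match at -67 of Tnfaip3, GGGACTTTCC. A match describes letters in these windows and says nothing about binding.

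The first comparison, of imiquimod with no treatment, concerns the skin after 6 days of imiquimod. Genes of ligands, receptors, adaptors, NF-kB subunits and their inhibitors were among those higher with imiquimod. In limma 35 of the 38 had an adjusted p under 0.05 (92.1%), where 87.8% of all rows of the table did, so the number of calls was near the background. Of these, 32 were higher (84.2%; 47.0% of all rows were called higher) and 3 were lower (40.8% of all rows), namely Tnfrsf19, Tnfrsf25 and Birc7. The median difference was 2.03 on the log2 scale over the 38 genes and 1.15 over all rows. With the 2 genes at 0 reads in untreated skin set to the bound that 3 reads per library give, the median was again 2.03. In 36 of the 38 genes the imiquimod and untreated libraries did not overlap, as in 86.7% of all rows.

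**Figure D1:**
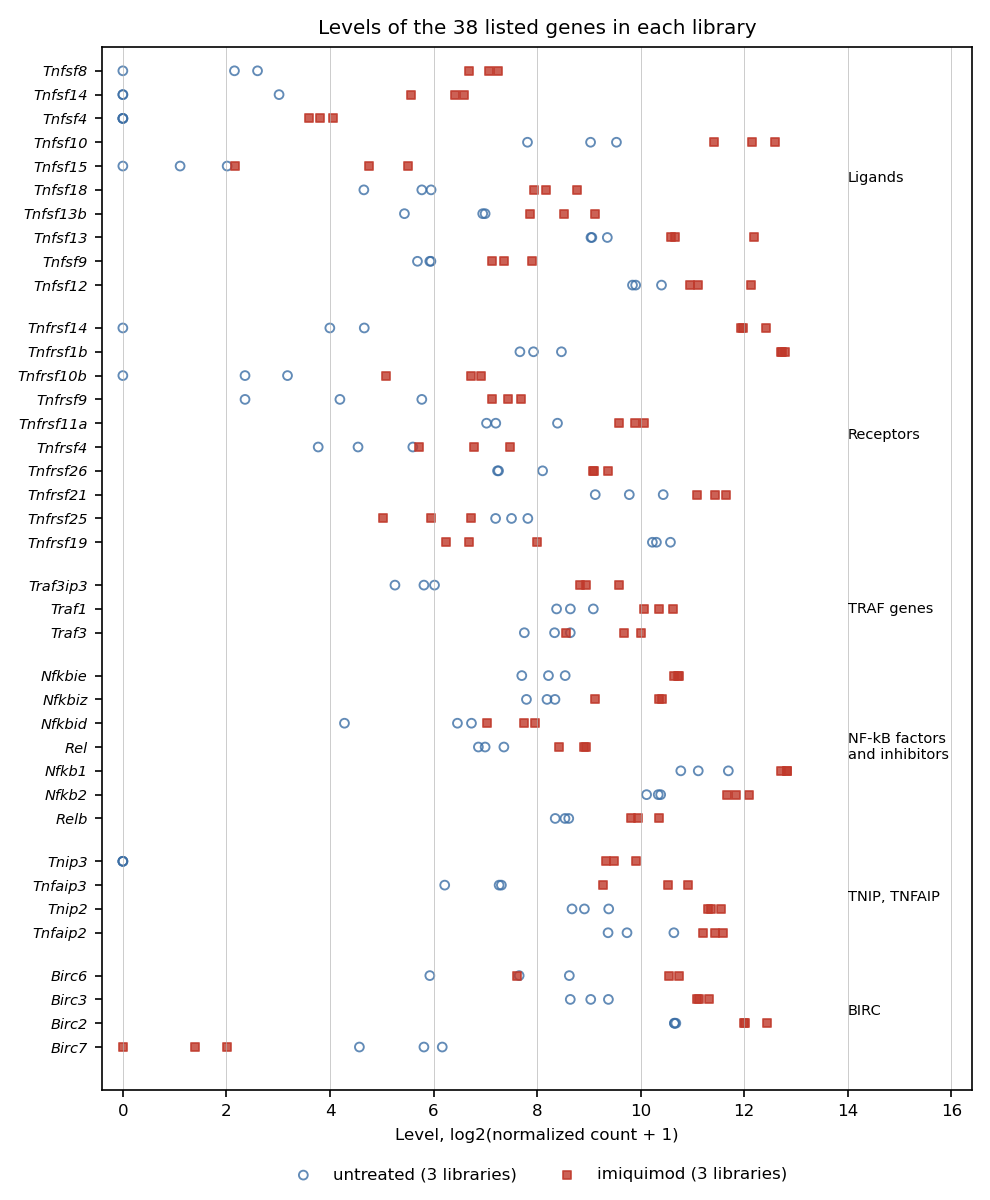
Levels of the 38 genes in each library on the log2(normalized count + 1) scale, with open circles for the 3 untreated and filled squares for the 3 imiquimod libraries, grouped by role. Squares lie to the right of circles except for Tnfrsf19, Tnfrsf25 and Birc7, and they overlap with circles for Traf3 and Birc6.

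The RNA is from whole skin, in which more cells of a type and more RNA per cell cannot be told apart. Most listed markers of T and NK cells, B cells and myeloid cells were higher in the same libraries, and mast cell markers were mostly lower. Of 15 T and NK cell markers 14 were listed and all 14 rose, with a summed level of 778 to 2260 normalized counts in untreated and 34280 to 40580 in imiquimod libraries. Of 11 monocyte and macrophage markers 11 rose (summed 30480 to 57940 and 320200 to 374100). Neutrophil markers rose in 6 of 8 listed (4098 to 5463 and 80250 to 124400), with Fpr1 at 0 in every untreated library, and dendritic and Langerhans cell markers in 6 of 7, with the Langerhans cell gene Cd207 lower (572 to 1429 and 4628 to 5328). Of 5 listed B and plasma cell markers 4 rose and 1, Mzb1, fell (summed over all 5, 93.2 to 196 and 220 to 382), with Cd79b at 0 in untreated skin. Of 4 listed mast cell markers Kit, Tpsb2 and Cma1 fell and Hdc rose (summed 5304 to 7467 and 4383 to 5300). Of 3 listed fibroblast markers the collagen genes Col1a1 and Col3a1 fell (differences -2.99 and -2.40), and Pdgfra missed the threshold. Hair follicle markers fell in 15 of 16 listed (1480000 to 3099000 and 3787 to 184800), while keratinocyte markers went both ways, 3 higher and 4 lower of 8 listed, at 588100 to 663400 and 538400 to 1024000, with none at 0 in any group. The part of these shifts in the results below was not tested.

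All 10 listed ligand genes rose, with no overlap between groups, where 47.0% of all rows were called higher and 86.7% had no overlap; with 10 selected rows this is a description of these genes. Tnfsf10, which encodes the death ligand TRAIL, had 523, 224 and 739.8 normalized counts in untreated replicates 1 to 3 and 2749.6, 6176 and 4568 with imiquimod. Its difference was 3.27 ± 0.55 (SE; limma adjusted p = 0.003), and the mean was 9.07 times as high. Every imiquimod library lay above the highest untreated one, and imiquimod replicate 1 was the lowest of them. Tnfsf8, the ligand of the lymphocyte receptor CD30, went from 3.46, 0 and 5.07 to 102, 149.8 and 134 normalized counts, a difference of 5.41 ± 0.70 (SE; limma adjusted p = 0.0013). The untreated values rest on 3, 0 and 5 reads, so the size of the change is loosely fixed, while its direction holds in every library. Tnfsf14, which encodes LIGHT, a T cell ligand, had 0, 0 and 7 reads without treatment and 84.5, 46.6 and 95.6 normalized counts with imiquimod, a difference of 5.19 ± 0.88 (SE; limma adjusted p = 0.0032). Tnfsf4, the OX40 ligand of antigen-presenting cells, had 0 reads in all untreated libraries and 18, 11 and 16 reads with imiquimod. Against a floor of 3 reads per library it was at least 4.16-fold higher (difference 3.83 ± 0.26 SE, limma adjusted p = 0.00014). Tnfsf18, the ligand of GITR on T cells, went from 24.2, 60.9 and 53.7 to 246, 437 and 288 normalized counts, 6.99 times as high on average, with a difference of 2.84 ± 0.45 (SE; limma adjusted p = 0.0026). In this gene replicate 2 was the highest library of both groups. Among these ligands, the difference of Tnfsf8 was 4.62 without untreated replicate 2, and that of Tnfsf14 was 6.20 without untreated replicate 3.

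The remaining ligands were also higher. Tnfsf13b, the B cell survival factor BAFF, was at 127, 42.4 and 123 normalized counts without and 364, 554 and 231 with imiquimod (difference 2.03 ± 0.56 SE, limma adjusted p = 0.015). Tnfsf13, its relative APRIL, was at 532, 526 and 655 without and 4670.1, 1617 and 1531 with imiquimod (difference 1.99 ± 0.49 SE, limma adjusted p = 0.011). Tnfsf12 (TWEAK), the neighbour of Tnfsf13 on chromosome 10, was at 957, 917 and 1353 without and 4517, 2210.2 and 1988 with imiquimod (difference 1.35 ± 0.41 SE, limma adjusted p = 0.021). In both of these neighbours imiquimod replicate 1 stood more than 1 log2 unit above the mean of the other imiquimod libraries, and without it the differences were 1.47 for Tnfsf13 and 0.98 for Tnfsf12. Reads that cross from one gene of the pair into the other cannot be told apart here, because how reads were counted is not stated in the sources at hand. Tnfsf12 no longer passed when untreated replicate 1 or 2 was left out (highest limma adjusted p, 0.063). Tnfsf9, the ligand of the T cell costimulator 4-1BB, went from 59.9, 50.6 and 60.8 to 238, 139.7 and 164 normalized counts (difference 1.61 ± 0.30 SE, limma adjusted p = 0.0046). Tnfsf15, which encodes TL1A, had 1, 0 and 3 reads in untreated and 4, 44 and 32 reads in imiquimod libraries (difference 3.11 ± 0.97 SE, limma adjusted p = 0.023). Imiquimod replicate 1 was 1 read above the highest untreated library, and Tnfsf15 missed the threshold on leaving out untreated replicate 1, untreated replicate 2, imiquimod replicate 2 or imiquimod replicate 3 (highest limma adjusted p, 0.074). Its difference was 4.10 when imiquimod replicate 1 was left out, and 2.42 when imiquimod replicate 2 was.

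Of the 10 listed receptor genes 8 rose and 2 fell, beside 47.0% and 40.8% of all rows. Tnfrsf14, which encodes HVEM, the receptor of LIGHT, was at 15.0, 0 and 24.3 normalized counts in untreated and at 5473, 4039.9 and 3936 in imiquimod libraries. Its mean went from 13.1 ± 12.3 to 4483 ± 859 (SD, n = 3), and its difference, 9.23 ± 1.20 (SE; limma adjusted p = 0.0013), was the largest among the receptors. The difference was 7.78 without untreated replicate 2, which had 0 reads, and 10.12 without untreated replicate 3. Tnfrsf1b, the second TNF receptor, found mainly on leukocytes and endothelium, was at 243, 202 and 354 normalized counts without and 6786, 7074 and 6685 with imiquimod. It was 25.7 times as high on average, a difference of 4.72 ± 0.30 (SE; limma adjusted p = 0.00012), and its imiquimod libraries lay closer together than those of any other receptor, with an SD of 0.042 on the log2 scale. Tnfrsf11a, which encodes RANK, the receptor of the osteoclast and Langerhans cell factor RANKL, went from 146, 129 and 335 to 767, 1067 and 951 (difference 2.31 ± 0.43 SE, limma adjusted p = 0.0045). Tnfrsf26 went from 149.7, 152 and 275 to 547, 664 and 537 (difference 1.65 ± 0.34 SE, limma adjusted p = 0.0061). In both genes untreated replicate 3 was the highest of its group and still below every imiquimod library.

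The other 4 receptor genes that rose were Tnfrsf9, Tnfrsf4, Tnfrsf10b and Tnfrsf21. Tnfrsf9 (4-1BB), a marker of activated T cells, was at 17.3, 4.13 and 53.7 normalized counts without and 205, 139.7 and 172 with imiquimod (difference 3.31 ± 0.84 SE, limma adjusted p = 0.012). Tnfrsf4 (OX40) was at 12.7, 47.5 and 22.3 without and 178, 109 and 51.5 with imiquimod (difference 2.02 ± 0.64 SE, limma adjusted p = 0.024), and imiquimod replicate 3 lay just above untreated replicate 2. Tnfrsf4 missed the threshold once untreated replicate 1 or 3, or imiquimod replicate 1 or 2, was left out (highest limma adjusted p, 0.074). Tnfrsf10b, a receptor of TRAIL, had 7, 4 and 0 reads in untreated skin and 38, 103 and 146 with imiquimod (difference 4.39 ± 0.93 SE, limma adjusted p = 0.0066). Tnfrsf21 (death receptor 6) went from 879, 557 and 1384 to 2173, 3231 and 2769 normalized counts (difference 1.61 ± 0.41 SE, limma adjusted p = 0.012). For none of these 4 genes did the groups overlap, nor did they in 86.7% of all rows. The difference of Tnfrsf9 was 2.44 without untreated replicate 2 and 4.14 without untreated replicate 3, and that of Tnfrsf10b was 5.06 without untreated replicate 1 and 3.47 without untreated replicate 3.

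The 2 receptor genes that fell were Tnfrsf19 and Tnfrsf25. Tnfrsf19, which encodes TROY, an orphan receptor known in mice from hair follicle and other epithelial progenitors, was at 1525, 1197 and 1264 normalized counts in untreated skin. With imiquimod it was at 253, 74.9 and 102, a difference of -3.39 ± 0.49 (SE; limma adjusted p = 0.0019), and the untreated mean was 9.26 times the imiquimod mean. Hair follicle markers were lower in the same libraries, as given above. Tnfrsf25 (death receptor 3), a receptor of T cells, was at 181, 225 and 146 in untreated and 105, 31.4 and 60.5 in imiquimod skin (difference -1.62 ± 0.48 SE, limma adjusted p = 0.02). Leaving out untreated replicate 1, untreated replicate 2 or imiquimod replicate 3 ended its call (highest limma adjusted p, 0.062). T cell markers were higher in the same imiquimod libraries.

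Both partners of a ligand and receptor pair were listed for 5 pairs. In 4 of them ligand and receptor rose together, namely Tnfsf4 with Tnfrsf4, Tnfsf9 with Tnfrsf9, Tnfsf10 with Tnfrsf10b and Tnfsf14 with Tnfrsf14. In the fifth pair the ligand gene Tnfsf15 rose by 3.11 and the receptor gene Tnfrsf25 fell by 1.62 on the log2 scale. All 10 listed ligand genes and 8 of the 10 listed receptor genes rose, so these pairs are given as a description. Neighbouring genes in the RefSeq order include Tnfsf4 and Tnfsf18 on chromosome 13, and Tnfsf8 and Tnfsf15 on chromosome 5. Tnfsf12 and Tnfsf13 on chromosome 10, and Birc2 and Birc3 on chromosome 8, also stand side by side. All 8 genes were higher, where 35 of the 38 genes had a positive difference and 47.0% of all rows were called higher.

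**Figure D2:**
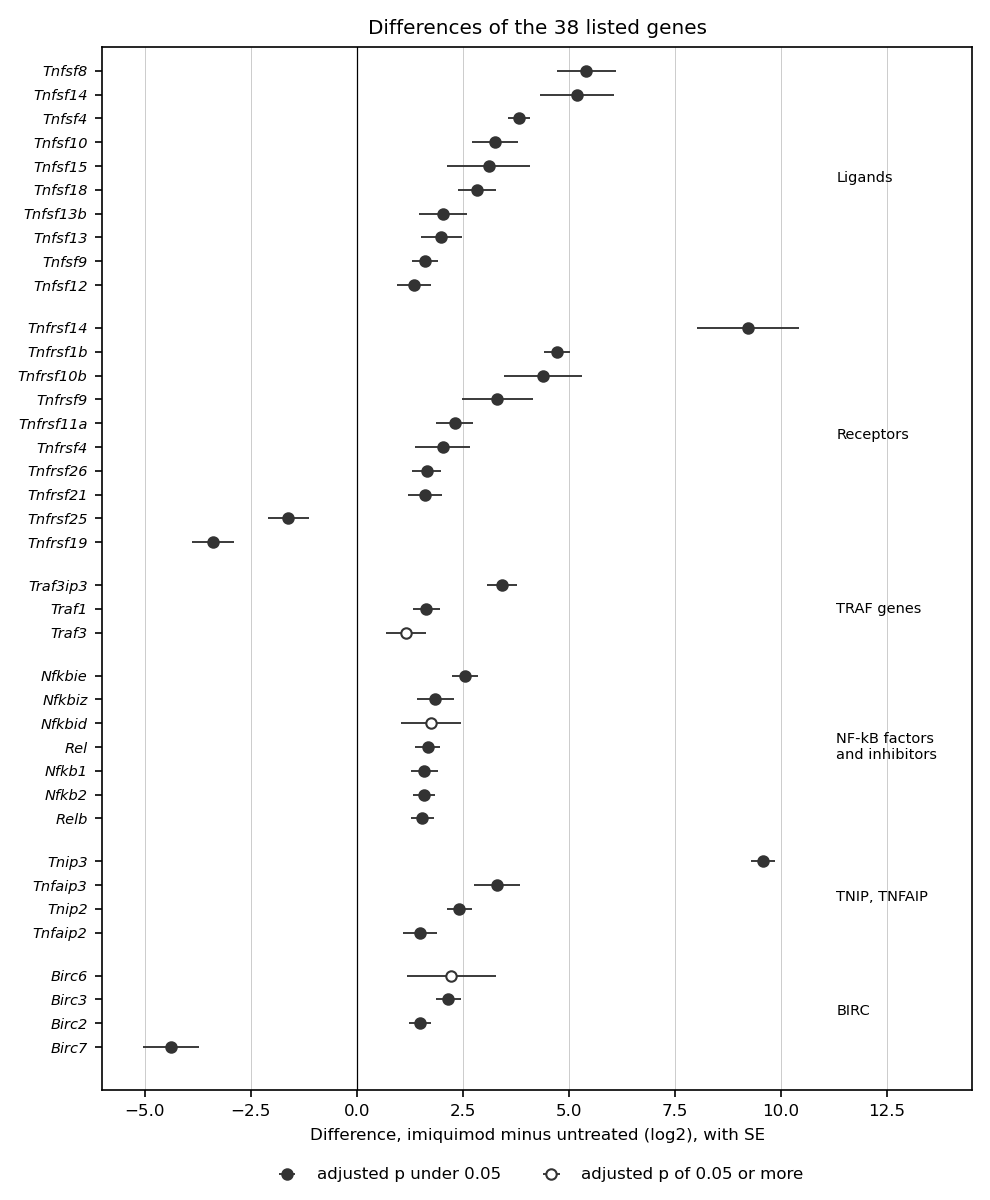
Difference of group means, imiquimod minus untreated, on the log2(normalized count + 1) scale for the 38 genes, with bars of 1 SE; filled points passed an adjusted p of 0.05 in limma. With a pseudocount of 1, Tnip3 at 9.58 and Tnfrsf14 at 9.23 lie farthest to the right, and Birc7 at -4.38, Tnfrsf19 at -3.39 and Tnfrsf25 at -1.62 lie to the left of 0.

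Among the Traf genes, Traf3ip3, whose product binds TRAF3 and is found in lymphocytes, was at 55.3, 37.2 and 63.8 normalized counts in untreated and 762, 456 and 491 in imiquimod skin. It was 10.9 times as high (difference 3.42 ± 0.35 SE, limma adjusted p = 0.00056). Traf1, an adaptor gene that NF-kB induces, went from 542, 399 and 331 to 1569, 1068 and 1303 (difference 1.64 ± 0.32 SE, limma adjusted p = 0.0049). Traf3, whose product restrains the noncanonical NF-kB branch, was at 322, 215 and 398 without and 375, 821 and 1025 with imiquimod, a difference of 1.17 ± 0.47 that missed the threshold (limma adjusted p = 0.053). Here imiquimod replicate 1 lay within the untreated range and the other 2 imiquimod libraries above it. Without imiquimod replicate 1 the difference was 1.60 (limma adjusted p = 0.013).

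Of the NF-kB subunit genes 4 were listed and all 4 rose by like amounts, between 1.54 and 1.68 on the log2 scale. Of all rows 47.0% were called higher. Nfkb1 was at 2214, 1752 and 3313 normalized counts in untreated and 6703, 7239.9 and 7272 in imiquimod libraries (difference 1.59 ± 0.32 SE, limma adjusted p = 0.0057). Nfkb2 was at 1108, 1295 and 1338 without and 4344, 3249.6 and 3655 with imiquimod (difference 1.58 ± 0.26 SE, limma adjusted p = 0.003). Rel, the c-Rel gene of lymphoid and myeloid cells, was at 127, 116 and 163 without and 342, 477 and 489 with imiquimod (difference 1.68 ± 0.30 SE, limma adjusted p = 0.0036). Relb, the partner of the Nfkb2 product, was at 371, 325 and 390.2 without and 1307, 902 and 993 with imiquimod (difference 1.54 ± 0.28 SE, limma adjusted p = 0.0038). Each of the 4 was about 3 times as high with imiquimod (2.91 to 3.22), and the groups did not overlap, as in 86.7% of all rows. Nfkb1, Nfkb2 and Rel are among the genes with the kappa B consensus in the RefSeq promoter.

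Of 3 listed IkB family genes with an Nfkb symbol 2 rose and 1 missed the threshold, where 47.0% of all rows were called higher. Bcl3, an IkB family gene outside the symbol rule, also rose and is given with the pathway lists. Nfkbie, which encodes IkB epsilon, a cytoplasmic inhibitor, was at 297, 208 and 372 normalized counts without and 1704, 1595 and 1693 with imiquimod. It was 5.69 times as high (difference 2.54 ± 0.31 SE, limma adjusted p = 0.001), the largest difference among the Nfkb and Rel genes, and its imiquimod libraries spanned only 1595 to 1704 normalized counts. Nfkbiz, which encodes the nuclear IkB zeta, a cofactor of IL-17 and IL-36 responses in keratinocytes, was at 291, 221 and 324 without and 557, 1358 and 1313 with imiquimod (difference 1.85 ± 0.43 SE, limma adjusted p = 0.0091). Imiquimod replicate 1 was the lowest imiquimod library and still above every untreated one. Nfkbid, for another nuclear IkB protein, was at 18.4, 105 and 87.2 without and 248, 131 and 213 with imiquimod, a difference of 1.76 ± 0.70 that missed the threshold (limma adjusted p = 0.051). The groups did not overlap for Nfkbid, and the lowest library was untreated replicate 1, without which the difference was 0.98. Without untreated replicate 2 it passed (limma adjusted p = 0.042).

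All 4 listed Tnip and Tnfaip genes rose, where 47.0% of all rows were called higher. Tnip3, which encodes ABIN-3, a ubiquitin-binding partner of A20, had 0 reads in all 3 untreated libraries and 712, 644 and 966 normalized counts with imiquimod. Against 3 reads per library this is at least 242-fold higher, and the fitted difference was 9.58 ± 0.27 (SE; limma adjusted p = 1.3e-05). That difference depends on the pseudocount: it was 6.27 with a pseudocount of 10, below the 7.76 of Tnfrsf14, and above Tnfrsf14 with the pseudocount of 1. Tnip2 (ABIN-2) went from 408, 481 and 667 to 2995, 2615 and 2538 (difference 2.41 ± 0.29 SE, limma adjusted p = 0.001). Tnfaip3, the gene of the ubiquitin-editing enzyme A20, went from 158, 73.3 and 153 to 617, 1923 and 1484, 10.5 times as high (difference 3.31 ± 0.54 SE, limma adjusted p = 0.0029). For A20 imiquimod replicate 1 was 1.45 log2 units below the mean of the other imiquimod libraries. Tnfaip2, a TNF-induced gene of myeloid and endothelial cells, went from 852, 661 and 1597 to 3074, 2372 and 2771 (difference 1.50 ± 0.39 SE, limma adjusted p = 0.013). None of these 4 genes had overlapping groups, and 86.7% of all rows had none either.

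The Birc genes, whose products carry baculoviral IAP repeats, differed in direction. Birc3 (cIAP2) was at 524, 664 and 398 normalized counts in untreated and 2228, 2165 and 2539.7 in imiquimod libraries (difference 2.15 ± 0.30 SE, limma adjusted p = 0.0016). Birc2 (cIAP1) was at 1640.1, 1609 and 1610.4 without and 5588, 4150.3 and 4094 with imiquimod (difference 1.49 ± 0.26 SE, limma adjusted p = 0.0037), with an SD of 17.5 normalized counts among the untreated libraries. Both lay apart between groups, as did 86.7% of all rows. Birc7 (livin), an inhibitor of caspases, had 48, 22 and 70 reads in untreated and 0, 3 and 2 reads in imiquimod libraries. Its difference was -4.38 ± 0.66 (SE; limma adjusted p = 0.0022), and the 5 imiquimod reads in all make the size of this decrease uncertain. Birc6, the gene of a very large ubiquitin ligase, was at 200.4, 59.9 and 393 without and 195, 1494 and 1713 with imiquimod, a difference of 2.23 ± 1.06 that missed the threshold (limma adjusted p = 0.081). Imiquimod replicate 1 lay inside the untreated range, and without it the difference was 3.24 (limma adjusted p = 0.019).

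Libraries of 1 group were not equally alike. Untreated replicate 2 was the lowest untreated library in 25 of the 38 genes and untreated replicate 3 the highest in 25 (39.8% and 44.3% of all rows), with genes tied at 0 counted under the lower number. Imiquimod replicate 1 was more than 1 log2 unit below the mean of the other imiquimod libraries in 7 genes (Birc6, Tnfsf15, Tnfrsf10b, Birc7, Tnfaip3, Traf3 and Nfkbiz) and more than 1 above it in 5 (Tnfsf13, Tnfrsf19, Tnfrsf25, Tnfrsf4 and Tnfsf12). Over the 5013 listed genes with a genomic span in RefSeq (83.2% of rows), the deviation of imiquimod replicate 1 had a Spearman correlation of -0.33 with span, and that of untreated replicate 2 of -0.26. Untreated replicate 3 and imiquimod replicates 2 and 3 had positive correlations (0.24, 0.28 and 0.18), and untreated replicate 1 was at 0.03. Which libraries depart from the rest cannot be told from these values. Over the 38 genes the correlations were -0.46, 0.34 and 0.25 for imiquimod replicates 1 to 3. For untreated replicates 1 to 3 they were 0.19, -0.08 and 0.03. The correlations are across genes of the same libraries, which are not independent replicates, and are given as a description. Without both imiquimod replicate 1 and untreated replicate 2, 34 of the 38 genes passed, 31 higher and 3 lower, and the median difference was 2.10. Tnfaip2, Tnfsf13b and Tnfsf12 then missed the threshold (limma adjusted p = 0.066, 0.057 and 0.056), while Traf3 and Birc6 passed (0.021 and 0.0155); the part of this pattern in other single values was not tested.

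**Figure D3:**
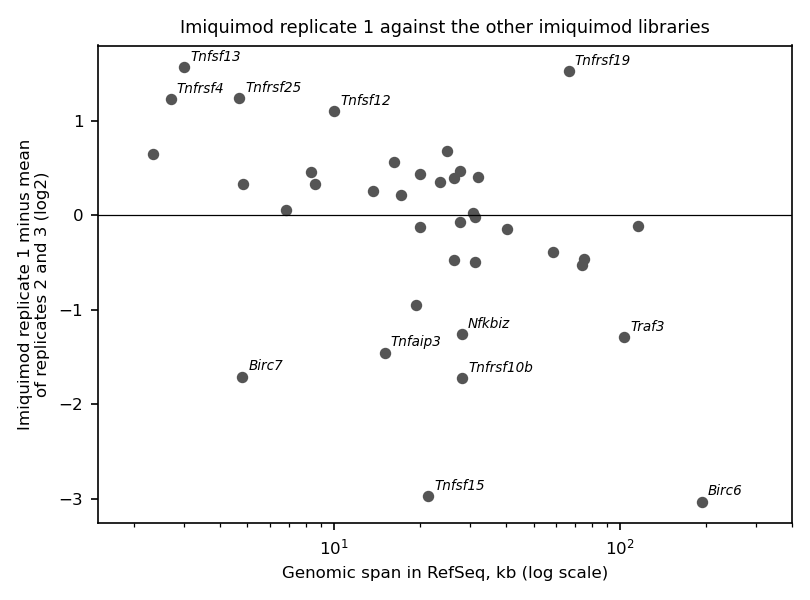
Imiquimod replicate 1 minus the mean of imiquimod replicates 2 and 3 (log2) against the genomic span of each of the 38 genes in RefSeq, in kb on a log scale; genes more than 1 log2 unit from 0 are named. Birc6, with the longest span (193 kb), lies lowest at -3.03, and Tnfsf13 (3.01 kb) lies highest at 1.57.

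Genes of the same pathway that the symbol rule leaves out were read from 4 lists. Of 15 TNF superfamily genes with other symbols 8 were listed, of which 6 rose, none fell and 2 missed the threshold (median difference 2.29). Of all rows 87.8% were called, and 47.0% were called higher. Cd27, a receptor of T and B cells, was at 3.46, 0 and 0 normalized counts without and 774, 628 and 483 with imiquimod, a difference of 8.55 ± 0.64 (limma adjusted p = 0.00021). Cd40, the receptor of antigen-presenting cells, rose from 146 ± 49.2 to 798 ± 134 (SD, n = 3; difference 2.49 ± 0.36) and Ltb, the lymphotoxin beta gene, by 3.16 ± 0.50 (SE). Cd40lg, the ligand of that receptor, had 0 reads in untreated skin and 0, 19 and 34 with imiquimod (limma adjusted p = 0.056). Eda2r, a receptor of ectodysplasin A2, had 12, 3 and 21 reads without and 0, 102 and 181 with imiquimod (limma adjusted p = 0.57). In both genes imiquimod replicate 1 was the library at 0 reads, and without it both passed. Lta, with at most 23 reads in any library, lost its call in 4 of the 6 runs without 1 library, all but untreated replicate 2 and imiquimod replicate 2 (highest limma adjusted p, 0.11).

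Of 30 genes of NF-kB signalling and processing 14 were listed and all 14 rose (median difference 1.74), in a table with 87.8% of rows called and 47.0% called higher. Bcl3, a nuclear IkB protein, went from 172, 133 and 256 to 1243, 1253 and 1318 normalized counts, a difference of 2.81 ± 0.32 (SE; limma adjusted p = 0.00085). Myd88, the adaptor of Toll-like receptors and IL-1 receptors, rose by 2.00 ± 0.25 (SE). Card14, a keratinocyte scaffold and psoriasis gene, rose by 1.14 ± 0.39, which missed the threshold when untreated replicate 1 or 2, or imiquimod replicate 1 or 3, was dropped (highest limma adjusted p, 0.089). Of 15 genes of TNF receptor death signalling 9 were listed and all 9 rose (median 2.37), against the same 47.0% of rows. The necroptosis genes led this list, with Zbp1 up from 26.5, 21.7 and 5.07 to 6186, 8695 and 6524 normalized counts, Ripk3 from 149.7, 160.1 and 348 to 5768, 7260 and 6661, and Mlkl from 847, 920.4 and 984 to 4289, 5062 and 4910. The differences were 8.82 ± 0.61 for Zbp1 and 2.37 ± 0.25 for Mlkl (SE), and limma adjusted p was 0.00015, 0.00023 and 0.0006 in that order of genes. Xiap, another gene of the IAP family, rose by 2.66 ± 0.81, and missed the threshold with untreated replicate 2, imiquimod replicate 2 or imiquimod replicate 3 dropped (highest limma adjusted p, 0.069).

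Of 20 known NF-kB target genes 17 were listed, of which 16 rose and 1 fell (median 3.50), where 47.0% of all rows were called higher and 40.8% lower. Il6 was not read in any untreated library (0 reads each) and stood at 312, 460.5 and 359 normalized counts with imiquimod, at least 118-fold higher. Bcl2a1, an antiapoptotic gene of leukocytes, went from 216, 179.7 and 298 to 13350, 7580 and 9855 (5.46 ± 0.35 SE) and the chemokine gene Ccl5 from 28.8, 36.2 and 51.7 to 3207, 1941 and 1488 (5.76 ± 0.40 SE). Ier3, an immediate early gene, fell from 2821, 5137 and 2543 to 1405, 968 and 2126 (difference -1.22 ± 0.43 SE; limma adjusted p = 0.036). Ier3 did not pass on dropping untreated replicate 1 or 2, or imiquimod replicate 1 or 2 (highest limma adjusted p, 0.10), nor without untreated replicate 2 and imiquimod replicate 1 together. These lists, like the 38 genes, were read from rows selected on the same libraries.

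**Figure D4:**
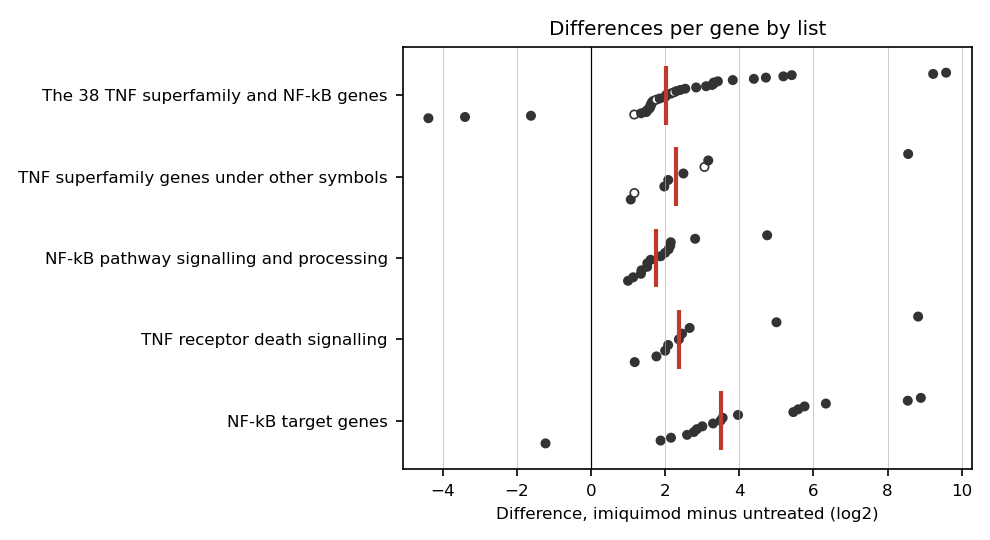
Difference of group means, imiquimod minus untreated (log2), for each listed gene of the 38 and of 4 further pathway lists; filled points passed an adjusted p of 0.05 in limma and vertical bars mark the medians of 2.03, 2.29, 1.74, 2.37 and 3.50 from top to bottom. Points to the left of 0 are Birc7, Tnfrsf19 and Tnfrsf25 in the top row and Ier3 in the bottom row.

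The second comparison sets skin with added epidural lidocaine against skin with imiquimod only. Of the 38 genes 1, Tnfrsf19, is in that table of 399 rows, and it did not pass, so that 0 of 1 were called, where limma called 32.1% of all rows. Its unadjusted p was 0.10, so the count at an unadjusted p under 0.05 was also 0, and no other tool was run. Tnfrsf19 was at 253, 74.9 and 102 normalized counts in imiquimod replicates 1 to 3 and at 33.4, 91.7 and 63.3 in the lidocaine libraries. The groups overlapped, and imiquimod replicate 1 was the highest. The difference was -1.09 ± 0.60 (SE; limma adjusted p = 0.10), and -0.59 without imiquimod replicate 1. Of the keratinocyte markers 5 were listed in this table, of which 1 fell and 4 did not pass (summed 99200 to 343900 normalized counts in imiquimod and 30120 to 132000 in lidocaine libraries). No gene of the hair follicle or leukocyte marker lists was among its rows.

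Since the imiquimod libraries hold the same values in both tables, Tnfrsf19 can be followed through all 3 groups. Lidocaine libraries lay below every untreated one (1197 to 1525), with a difference of -4.49 ± 0.41 (SE; limma adjusted p = 0.00036 over the 227 rows that both tables hold, of which 73.6% passed). This comparison shares its untreated libraries with the first and its lidocaine libraries with the second, and both tables were selected, so it describes the level and adds no independent support. Of the pathway lists, Ltb among the superfamily genes and Il6, Ccl5, Lcn2 and Il1b among the NF-kB targets were listed with lidocaine, all 5 at higher means and none past the threshold. Ltb was at 374, 194 and 229.7 normalized counts with imiquimod and 497, 415 and 833 with added lidocaine (difference 1.12 ± 0.50 SE; limma adjusted p = 0.072). Il1b was at 3498, 2215 and 2726 and 5233, 5041 and 8911 (1.16 ± 0.47 SE; limma adjusted p = 0.067). In both genes the lowest lidocaine library lay above the highest imiquimod library, as the groups did without overlap in 71.9% of rows of this table.

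**Figure D5:**
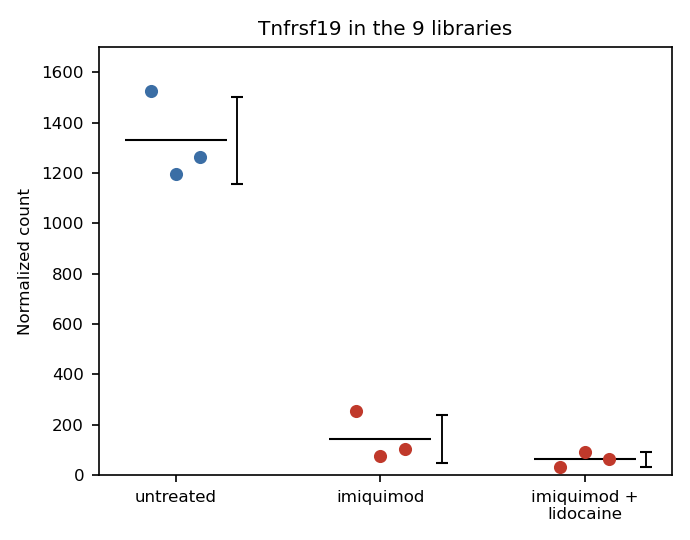
Normalized counts of Tnfrsf19 in the 3 libraries of each group (points), with the group mean (horizontal line) and SD (bar). Untreated libraries sit between 1197 and 1525, imiquimod libraries between 74.9 and 253, and libraries with added lidocaine between 33.4 and 91.7.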

How the data were processed

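RNA was measured in 9 skin samples, grouped by their titles. Per the submitters' processing notes, bcl2fastq, STAR 2.5.3a and DESeq2 were used; how reads were counted, on which build and strand, and how rows were selected is not stated there. The deposited values are on a log2 scale, read as log2(normalized count + 1): once undone, values of up to 2000 reads were whole multiples of 1 step per library within 0.01, which gave reads.

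Per table, limma 3.58.1 (R 4.3.3; tables in python 3.11.15, numpy 2.4.6 and pandas 2.3.3) was fitted over all rows with no term for the replicate number. P-values were adjusted by Benjamini and Hochberg's method within each table, at a threshold of 0.05. The code of the fit was run on simulated counts with a fixed dispersion and no row selection. That run does not show how the p-values behave in these selected tables. Adding 1 before the log shrinks differences of genes with few reads. Because the authors selected rows, none with a difference under 1, on these libraries, adjusted p-values come out too small. Members and lists were chosen with earlier results of these data known. By rule, library values were given for the 5 smallest adjusted p per role, genes that fell and lidocaine rows, and 3 genes per pathway list plus those going the other way; the other members and Card14, Xiap, Lta, Cd40lg, Eda2r and Il1b were added after their values were seen. Of the genes this rule names, 1 is not reported here. Marker lists not named in the text were skeletal muscle (1 of 1 listed fell), adipocytes (4 of 4 fell) and proliferating cells (2 of 2 rose). RefSeq tables of assembly GRCr8 gave promoters and spans.

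Alternatives covered pseudocounts of 0.1 and 10, minimum means of 10 and 100, a mean-variance trend, adjustment for 23154 protein-coding genes, a threshold of 0.01, a block for the replicate number, and each library left out in turn.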

Additional observations from a re-analysis of the deposited data

How the results depend on the processing

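The direction of all 38 genes held under every alternative in which the gene was tested. The number past the threshold with imiquimod was 35 with a pseudocount of 0.1, 37 with one of 10, 37 with a mean-variance trend, 29 after adjustment as if 23154 genes had been tested and 26 at a threshold of 0.01. Of genes with a mean of at least 10 it was 36 of 37, and of at least 100 it was 29 of 30. Without 1 library it lay between 31 and 36, and the median difference between 1.99 and 2.18. Of the 35 called genes 31 kept their call in each of these runs; the exceptions were Tnfsf12, Tnfsf15, Tnfrsf4 and Tnfrsf25. Adjustment for 23154 genes also ended the calls of Tnfaip2 and Tnfsf13b (limma adjusted p = 0.052 and 0.058). Leaving out untreated replicate 2 and imiquimod replicate 1 together was chosen after seeing the data, and so were the alternatives of lidocaine against untreated skin. Deviations of same-numbered samples from their group means had correlations across rows of -0.02, -0.23 and -0.01. Untreated replicate 2 and imiquimod replicate 1 reached 0.255, so these values cannot show whether the numbers pair the samples. The labels do not say either. With the replicate block 35 genes passed with imiquimod, 32 higher and 3 lower. Tnfrsf19 was not called with lidocaine against imiquimod in any run, with differences from -1.46 to -0.59 when 1 library was left out. Leaving out a library moved the fold change by over 1.5 times for the called genes Tnfsf8, Tnfsf14, Tnfsf15, Tnfrsf9, Tnfrsf10b and Tnfrsf14 (values beside each gene), and turned no direction. Tnip3 had a larger difference than Tnfrsf14 with pseudocounts of 0.1 and 1 and a smaller one with 10. Few reads in 1 of the groups limit the size of the differences of Tnfsf4, Tnfsf8, Tnfsf14, Tnfsf15, Tnfrsf10b, Tnfrsf14, Tnip3 and Birc7, and bounds from reads cover counting error only.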
